A study of Mus musculus with 6 samples.

Results

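The Dlk1-Dio3 domain is an imprinted cluster on mouse chromosome 12, and its 6 genes studied here were Dlk1, Rtl1 and Dio3, which make proteins and are normally expressed from the paternal chromosome, and Meg3, Rian and Mirg, which make non-coding RNAs and are normally expressed from the maternal chromosome. The members were taken by symbol, 6 of 23889 listed genes, and all 6 were present in each of the 3 deposited tables. The domain was chosen by the levels of Meg3 and Rian, which were already known to differ between the cell lines of this study, so the differences between lines are given as a description without a test.

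Expression was measured by RNA sequencing of polyA RNA in 6 mouse libraries. Androgenetic haploid embryonic stem cells (AG-haESCs) are stem cells from embryos with a single, paternal genome, made by placing a sperm head in an oocyte without its nucleus. The 3 AG-haESC libraries came from 3 lines, A129-2, AOS-14 and AOS-16, each labelled F1 hybrid C57BL/6 X DBA/2, derived with enucleated BDF1 oocytes activated in SrCl2, grown on feeder cells in KSR medium with 2i (inhibitors of the kinases MEK and GSK3) and sorted by Hoechst fluorescence for haploid cells in G0/G1. Each line is represented by 1 library, so a line cannot be told apart from its library, culture or sort. The single library labelled round sperm carries the same strain and the same culture and sorting text, and the 2 libraries labelled ESC XX came from cells with an Oct-GFP (C57) background, grown in serum, LIF and 2i and harvested once feeders had been removed, and no sort is named for them. Culture with 2i is thus in the labels of every group.

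Imprinting in this cluster is set by a germline control region between Dlk1 and Meg3 that carries DNA methylation on the chromosome inherited from sperm. On the maternal chromosome the unmethylated region is known to permit transcription of Meg3, Rian and Mirg, whose transcripts host many microRNAs and small nucleolar RNAs, and the protein genes are then silent in cis. In mouse stem cells, the level of Meg3 and its companions is widely used as a readout of this locus.

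The annotated start regions of the 3 maternally expressed RNAs are shown because Meg3 and Rian moved together in the data that follow while Mirg did not always do so. Each window of 300 bases runs from 250 bases before to 50 bases after the start, on the plus strand of GRCm38.p6, from RefSeq. A window was found for 5 of the 6 members, and no usable window was found for Rtl1. The first Meg3 window lies at chr12:109540746-109541045, the Rian window at chr12:109603695-109603994 and the Mirg window at chr12:109734731-109735030. Capitals mark matches, on either strand, to TGACGTCA (the cAMP response element), TATAAA (the TATA box), CCAAT, and TGCCGC (letters bound by the imprint protector ZFP57 when methylated).
Meg3: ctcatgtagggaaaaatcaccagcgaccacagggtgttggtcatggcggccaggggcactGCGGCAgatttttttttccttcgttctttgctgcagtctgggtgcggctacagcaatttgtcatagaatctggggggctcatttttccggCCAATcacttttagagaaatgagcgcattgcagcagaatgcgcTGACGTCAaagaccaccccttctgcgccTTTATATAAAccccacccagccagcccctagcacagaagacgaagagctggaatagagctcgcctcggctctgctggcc
Rian: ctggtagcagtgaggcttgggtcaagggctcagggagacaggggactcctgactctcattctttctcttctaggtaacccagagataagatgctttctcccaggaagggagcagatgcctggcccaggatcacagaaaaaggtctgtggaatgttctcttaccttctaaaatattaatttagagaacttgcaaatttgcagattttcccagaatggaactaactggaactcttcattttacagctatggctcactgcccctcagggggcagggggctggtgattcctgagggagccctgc
Mirg: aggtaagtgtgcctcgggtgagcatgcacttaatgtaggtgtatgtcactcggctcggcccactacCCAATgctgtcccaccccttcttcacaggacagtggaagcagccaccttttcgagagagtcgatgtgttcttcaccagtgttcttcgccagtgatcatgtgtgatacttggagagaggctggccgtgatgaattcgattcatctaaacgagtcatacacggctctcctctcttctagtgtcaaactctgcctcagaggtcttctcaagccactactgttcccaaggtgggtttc
The Meg3 window held TGACGTCA from 57 to 50 bases before the start, letters present in 1.79% of all 32807 RefSeq windows of this length. TATAAA matched it 2 times, on the plus strand from 25 to 20 and on the minus strand from 29 to 24 bases before the start, and these matches overlap. That motif was in 13.6% of all windows. CCAAT lay from 100 to 96 bases before the Meg3 start, and from 184 to 180 bases before the Mirg start, and was in 37.4% of all windows. TGCCGC matched the minus strand of the Meg3 window from 190 to 185 bases before the start, and was in 11.6% of all windows. The Rian window held none of the 4 motifs. It also had 0 CpG dinucleotides, against 13 in the Meg3 window, 10 in the Mirg window and a median of 7 over all windows.

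Facts of the libraries that bear on every value follow. Depth, estimated from the steps between low values, ran from about 9.25 M (mega) to 19.7 M fragments. The 8 pluripotency markers summed to between 7558 and 8395 TPM (FPKM rescaled so that each library has the same total) in the AG-haESC libraries, 7860 and 7961 in ESC XX and 203 in round sperm. Dppa5a was the largest part, at 4429, 4301 and 3670 TPM in A129-2, AOS-14 and AOS-16. Zfp42 stood at 649 TPM in A129-2, 77.6 and 72.8 in AOS-14 and AOS-16, and 334 and 338 in ESC XX. By the calls given below, Zfp42 was higher (2.80) and Klf4 lower (-1.09) in A129-2, beside 5.01% and 5.34% of all genes. Klf4 made up 176 of the 203 TPM in round sperm. A sum can thus hide differences between lines. The 8 spermatid markers summed to 31555 TPM in round sperm and at most 2.81 elsewhere, so the spermatid markers were where the labels place them. The 12 feeder fibroblast markers summed to 529, 419 and 689 TPM in A129-2, AOS-14 and AOS-16, 12.8 in round sperm, and 3738 and 3753 in ESC XX. The A129-2 sum was mostly Fn1 (244) and Vim (258). Of other cell types that could be present, 6 Sertoli markers reached at most 20.3 TPM in sum, 6 Leydig markers 9.23, 8 primitive endoderm markers 114 and 8 trophoblast markers 126. Eef1a1, a translation elongation factor that every cell uses, was listed at 0 in all 3 AG-haESC libraries, so a value of 0 in these tables may be a failed estimate.

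Meg3, the long RNA at the head of the maternal transcription unit, stood at 82.4 FPKM (fragments scaled to transcript length and library depth) in A129-2, 13.6 in AOS-14, 15.3 in AOS-16, 0.224 in round sperm, and 71.5 and 70.8 in ESC XX. A129-2 was high, both AOS lines were low and round sperm was near 0. Rian, the host of many small nucleolar RNAs, stood at 56.5 FPKM in A129-2, 9.64 in AOS-14, 10.6 in AOS-16, 0.299 in round sperm, and 57.0 and 60.0 in ESC XX. The libraries fell in the same high, low and near-0 sets as for Meg3. Mirg, the host of a large group of microRNAs, stood at 7.08 FPKM in A129-2, 1.24 in AOS-14, 1.33 in AOS-16, 18.2 in round sperm, and 8.35 and 7.34 in ESC XX. Mirg thus had the same high and low sets among the stem cell libraries, and was high in round sperm, where the other maternal RNAs were not.

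Of the protein genes, Dlk1, a transmembrane relative of the Notch ligands, stood at 1.04 FPKM in A129-2, 1.04 in AOS-14, 1.26 in AOS-16, 0.184 in round sperm, and 2.30 and 1.88 in ESC XX. The 3 lines lay close together, under both ESC XX libraries and above round sperm. Dio3, the deiodinase that inactivates thyroid hormone, was at 4.63 and 4.42 FPKM in ESC XX, 0.940 in AOS-14, 0.644 in A129-2 and, lowest, 0.276 in AOS-16, and was listed at 0 in round sperm. All 3 lines were below both ESC XX libraries, and A129-2 lay between the AOS lines. Rtl1, a retrotransposon-derived gene needed in the placenta, was at 0.583 FPKM in A129-2, 0.167 in each ESC XX library, 0.0903 in AOS-14 and, lowest of the lines, 0.0370 in AOS-16, and was listed at 0 in round sperm. A129-2 was the highest library for Rtl1, as it was for Meg3.

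**Figure D1:**
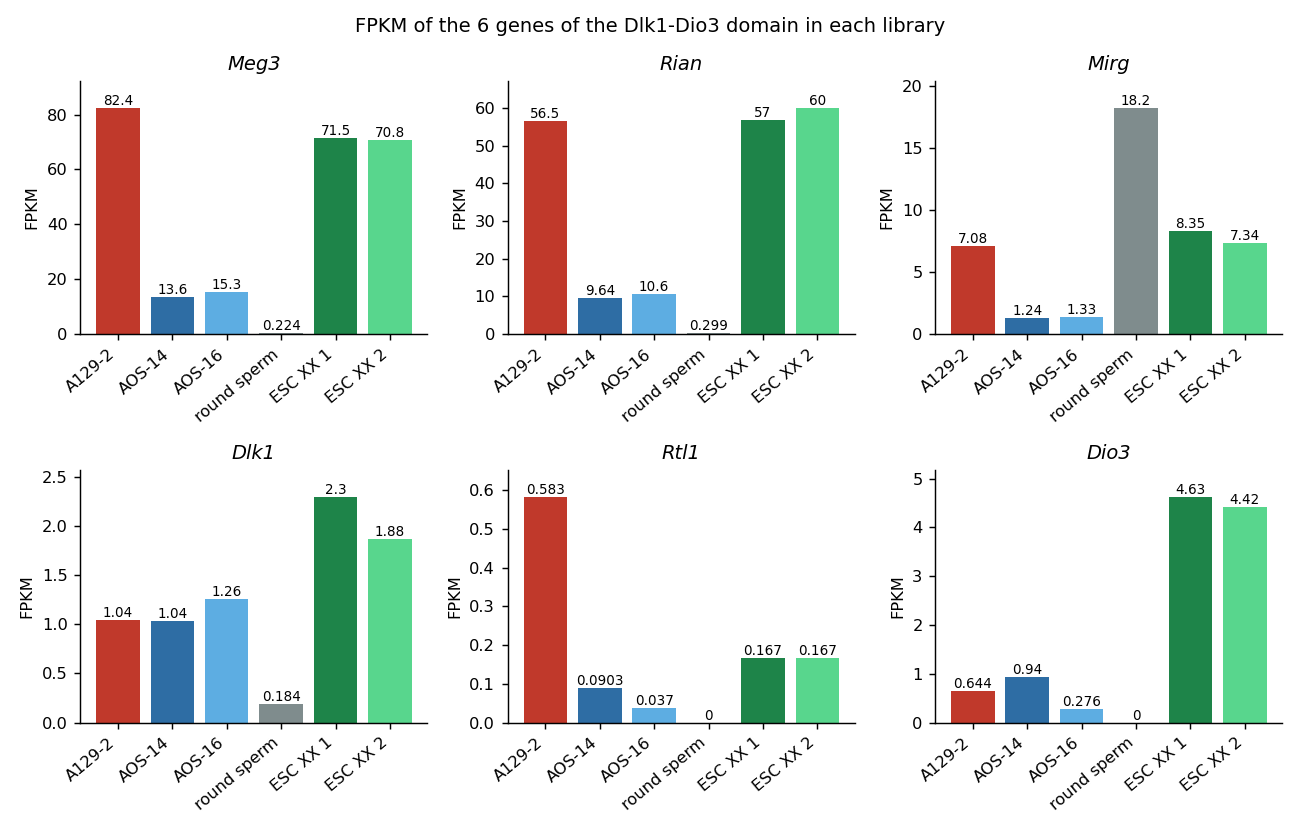
FPKM of each of the 6 genes in the 3 AG-haESC lines, round sperm and the 2 ESC XX libraries; each bar is 1 library and each panel has its own linear axis from 0. Meg3 and Rian were high in A129-2 and ESC XX and low in the AOS lines, Mirg was highest in round sperm at 18.2 FPKM, and Dio3 was highest in ESC XX.

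The lowest members rest on few fragments. From the estimated depth, Dio3 was covered by about 31 fragments in AOS-14, 10 in A129-2 and only 5 in AOS-16, against 128 and 140 in ESC XX. The 95% Poisson intervals for Dio3 were 0.0902 to 0.649 FPKM in AOS-16, 0.311 to 1.19 in A129-2 and 0.641 to 1.34 in AOS-14, so the order of the lines for Dio3 was within or near counting error. In ESC XX those intervals were 3.85 to 5.49 and 3.70 to 5.19 FPKM, clear of all 3 lines. For Rtl1, about 33 fragments in A129-2 gave an interval of 0.399 to 0.814 FPKM, about 11 in AOS-14 gave 0.0453 to 0.162 and about 2 in AOS-16 gave 0.00365 to 0.109. The Rtl1 interval of A129-2 did not meet those of the AOS lines. These intervals cover counting error only.

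Between the lines, Meg3 was 6.05 times as high in A129-2 as in AOS-14 and 5.39 times as high as in AOS-16. The factors for Rian were 5.86 and 5.31, and those for Mirg 5.69 and 5.32, so the 3 maternal RNAs differed by nearly 1 common factor. The same ratios were 1.00 and 0.823 for Dlk1 and 0.685 and 2.33 for Dio3, so neither gene set A129-2 apart from both AOS lines. Rtl1, paternally expressed in textbook imprinting, was 6.46 and 15.8 times as high in A129-2, with the small fragment numbers given above. An lncRNA annotated within the span of Rtl1, 6430411K18Rik, stood at 1.34 FPKM in A129-2, 0.318 in AOS-14, 0.0820 in AOS-16, 0.267 and 0.513 in ESC XX and listed at 0 in round sperm. It too was highest in A129-2. Rtl1 is known to lie opposite a maternally expressed antisense transcript, and because the use of strand in counting is not given in the sources used here, reads from Rtl1 and from a transcript on its other strand cannot be told apart.

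On the log2(FPKM + 1) scale, where a gene was called past a difference of 1 (2 times) with A129-2 outside both AOS lines, the difference of A129-2 from the AOS mean was 2.43 for Meg3, 2.37 for Rian, 1.82 for Mirg and -0.07 for Dlk1. These were 3 higher calls and 0 lower calls among the 4 members that reached 1 FPKM in at least 1 line, beside 5.01% of the 12637 genes called higher and 5.34% called lower, and nothing is read from this because the contrast chose the members. Rtl1 (0.57) and Dio3 (0.06) were under that level. Between AOS-14 and AOS-16, none of these 4 members was called, beside 6.52% of all genes in either direction. The known levels of Meg3 and Rian that chose the domain include both AOS lines, so nothing is read from this count either. The differences of AOS-14 from AOS-16 were -0.16 for Meg3, -0.13 for Rian, -0.05 for Mirg and -0.15 for Dlk1.

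None of the measured genes beside the domain was raised in A129-2 as far as the maternal RNAs. Of 18 genes that flank the 6 members and were measured, 0 were called higher and 1 was called lower in A129-2. The shares of all genes were 5.01% and 5.34%, so nothing is read from these counts. The median difference of the 18 genes was -0.09, with a range of -1.42 to 0.60. The lower one was Amn (-1.42), a membrane protein of vitamin B12 uptake, and the highest was Yy1 (0.60), a zinc finger transcription factor. Begain, next to Dlk1, differed by 0.14. Over the 440 measured genes of chromosome 12 the median was -0.03, with 15 called higher and 34 called lower, beside the same shares of all genes.

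**Figure D2:**
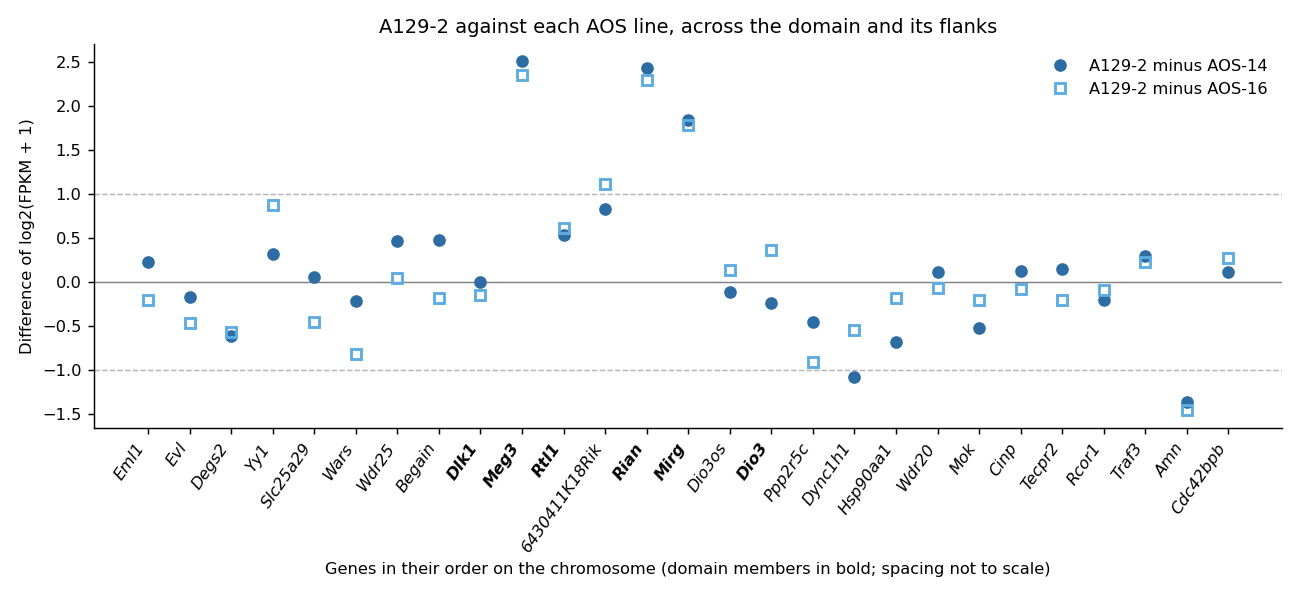
Difference of log2(FPKM + 1) of A129-2 from AOS-14 (filled circles) and from AOS-16 (open squares) for the 6 members, in bold, and the genes around them in chromosome order; dashed lines mark a difference of 1. Meg3, Rian and Mirg lie above the upper line, while Dlk1 and Dio3 and most flanking genes lie near 0.

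Most feeder fibroblast markers moved the other way between the lines. Of the 12 markers, 10 were called lower in A129-2 and 0 higher, beside 5.34% and 5.01% of all genes. Lum and S100a4 were listed at 0 in A129-2. Col1a1, a fibrillar collagen, was at 52.1 FPKM in AOS-16, 39.9 in AOS-14 and 5.68 in A129-2. The line with the least Col1a1 was the line with the most Meg3. Whether the levels of Col1a1 and Meg3 are linked was not tested. Summed over all 12 markers, A129-2 lay between the AOS lines. That sum of 529 TPM in A129-2 was mostly Fn1 (244) and Vim (258), the markers not called (-0.25 and 0.72). In AOS-14 and AOS-16, Fn1 was at 183 and 311 TPM and Vim at 97.1 and 169. The sum therefore does not show the lower level of the other markers in A129-2.

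Ratios within a library do not depend on its scaling. The ratio of Rian to Meg3 was 0.708 in AOS-14, 0.696 in AOS-16 and 0.685 in A129-2 (mean 0.696 ± 0.0111, SD, n = 3), while their levels spanned more than 5 times. It was 0.797 and 0.847 in ESC XX and 1.34 in round sperm, where both RNAs were near 0. The ratio of Mirg to Meg3 was 0.0913, 0.0870 and 0.0859 in the same lines (mean 0.0881 ± 0.00287, SD, n = 3), 0.117 and 0.104 in ESC XX, and 81.6 in round sperm. Mirg was thus a small and nearly constant part of the maternal RNAs in every stem cell library and the main one in round sperm. The ratio of Meg3 to Dlk1, which sets a maternal against a paternal RNA, was 79.2 in A129-2, 13.1 in AOS-14, 12.1 in AOS-16, 1.21 in round sperm, and 31.1 and 37.8 in ESC XX.

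**Figure D3:**
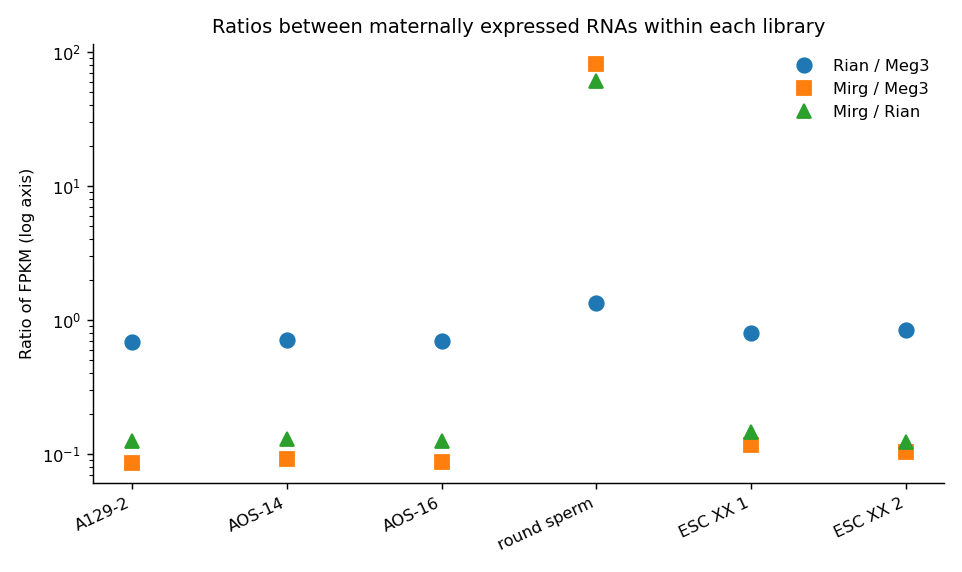
Ratios of FPKM between Rian, Mirg and Meg3 within each library, on a log axis; each point is 1 library. The ratio of Rian to Meg3 stays between 0.685 and 1.34 in all 6 libraries, while both ratios with Mirg leave the range of the stem cells in round sperm.

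Against round sperm, none of the 4 members tested was called by limma, at an adjusted p under 0.05 and a log2 difference of at least 1, beside 22.8% of the 15938 genes tested called higher and 39.1% called lower in AG-haESCs. The median difference of all genes was -0.49. Meg3 differed by 4.47 ± 1.39 (log2(FPKM + 1), standard error; limma adjusted p = 0.0762) and Rian by 3.89 ± 1.35 (limma adjusted p = 0.0944), both with all 3 lines above round sperm. Mirg differed by -2.47 ± 1.04 (limma adjusted p = 0.135), with all 3 lines below. Dlk1 differed by 0.83 ± 0.09 (limma adjusted p = 0.00870), which passed the limit on p and missed that on size. At an unadjusted p under 0.05, 1 member passed, Dlk1. Rtl1 and Dio3 stayed under 1 FPKM in these libraries and were not tested. With 1 round sperm library and 2 residual degrees of freedom, an adjusted p over the limit does not show that Meg3, Rian or Mirg were alike in the groups.

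The maternal RNAs changed call with A129-2 left out. Without that library the limma fit gave differences of 3.66 for Meg3, 3.10 for Rian and -3.07 for Mirg, each past both limits. The level of Meg3 and Rian in A129-2 was among the values that chose the domain, so these calls are a description of the remaining libraries and support nothing. A pseudocount of 0.1 called Meg3 at 6.32 (limma adjusted p = 0.0383), Rian at 5.50 (limma adjusted p = 0.0496) and Dlk1 at 2.09 (limma adjusted p = 0.00581). Dlk1 was also called after rescaling to the same total, at 1.35 (limma adjusted p = 0.0211). With that scaling the median of all genes moved from -0.49 to 0.40 and the share of higher among all calls from 36.8% to 52.1%. On the TPM scale Mirg was at 14.7 in round sperm and 13.9 in A129-2, while the summed FPKM of all genes was 1239220 in round sperm and 509359 in A129-2.

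Against ESC XX, Dio3 was the 1 member called, lower in AG-haESCs, beside 7.82% of 14251 genes called lower and 6.93% called higher. Here a call needs a difference of 1 in mean log2(TPM + 1), with the median over genes removed, and no overlap between the groups, and no test was run because the ESC XX tables were normalized apart. Dio3 was at 1.27, 1.33 and 0.506 TPM in A129-2, AOS-14 and AOS-16 and at 9.12 and 8.70 TPM in ESC XX, a difference of -2.21 ± 0.35 (SD of the lines, n = 3). The mean of ESC XX was 8.62 times that of the lines. Dlk1 was at 2.04, 1.47 and 2.31 TPM in the lines and at 4.53 and 3.69 TPM in ESC XX, a difference of -0.70 ± 0.22 (SD, n = 3), with no overlap but under the size needed. Thus both protein genes were lower in every line than in either ESC XX library. Rtl1 differed by 0.15 ± 0.56 (SD, n = 3), with overlap.

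The maternal RNAs split the lines in this comparison. A129-2 differed from the ESC XX mean by 0.31 for Meg3, 0.05 for Rian and -0.04 for Mirg. AOS-14 differed by -2.70, -2.88 and -2.47 for the same 3 genes, and AOS-16 by -2.18, -2.40 and -2.15. The group differences were therefore wide, at -1.52 ± 1.61 for Meg3, -1.75 ± 1.57 for Rian and -1.55 ± 1.32 for Mirg (SD, n = 3), and no call was made. Rian and Mirg stood close to the line between overlap and none, since A129-2 was at 111 TPM for Rian against 112 and 118 in ESC XX and at 13.9 for Mirg against 16.4 and 14.5. Without the removal of the median both were called, at -1.85 and -1.66, and on FPKM as deposited at -1.63 and -1.34. Without A129-2, the line on which the choice of the domain rested, Meg3 (-2.35), Rian (-2.56) and Mirg (-2.22) all passed as lower, and nothing is read from this.

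**Figure D4:**
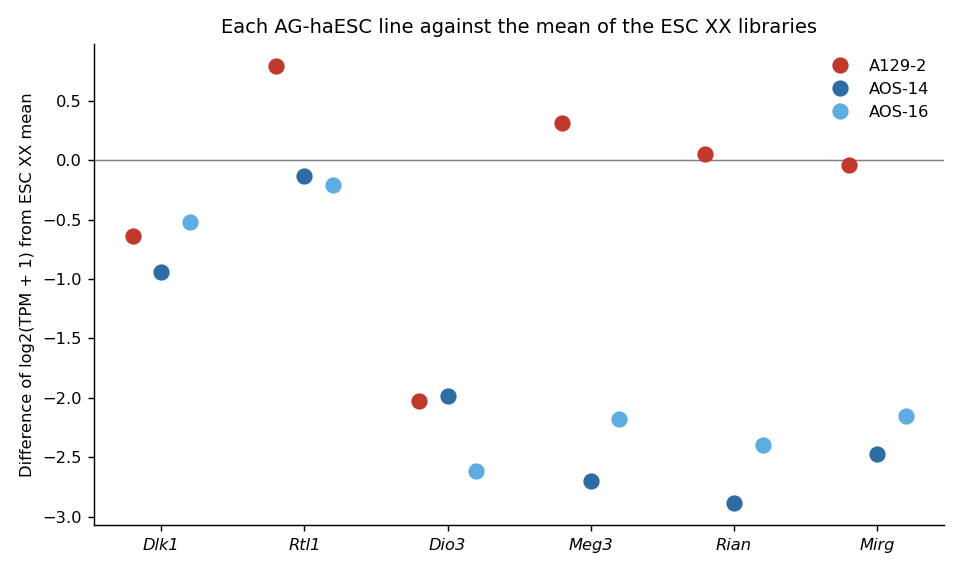
Difference of log2(TPM + 1) of each AG-haESC line from the mean of the 2 ESC XX libraries, with the median over genes removed; each point is 1 line. A129-2 lies near 0 for Meg3, Rian and Mirg while both AOS lines lie below -2, and all 3 lines lie below 0 for Dlk1 and Dio3.

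The ESC XX libraries also had higher levels of the feeder fibroblast markers. Of the 12 markers 11 were called lower in AG-haESCs and 0 higher, beside 7.82% and 6.93% of all genes. Col1a1 was at 357 and 346 FPKM in ESC XX. Which cells made this RNA was not tested. Meg3 and Dlk1 are known to be expressed in embryonic fibroblasts, and the part of this marker difference in the values of Dio3, Dlk1 and the maternal RNAs was not tested. In these bulk libraries, fewer cells expressing a gene and less RNA of it per cell cannot be told apart.

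By level on the TPM scale, Meg3 ran from A129-2 (162) through ESC XX (141 and 140), AOS-16 (28.0) and AOS-14 (19.3) to round sperm (0.180). A129-2 exceeded ESC XX by more than the gap between the ESC XX libraries, but that gap may be technical. The ESC XX tables were also normalized apart, so no excess of A129-2 is read from this. For Rian the order was ESC XX (118 and 112), A129-2 (111), AOS-16 (19.5), AOS-14 (13.6) and round sperm (0.241), and A129-2 was nearer to ESC XX than the ESC XX libraries were to each other. For Mirg, ESC XX (16.4 and 14.5), round sperm (14.7) and A129-2 (13.9) lay within or next to the range of the ESC XX pair, above AOS-16 (2.43) and AOS-14 (1.76). For Dlk1 and Dio3, the order among the 3 lines did not repeat that of the maternal RNAs.

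Profiles were also set beside that of Meg3, as a description, since the levels of Meg3 and Rian chose the domain and their likeness was part of that choice. Likeness was the root mean square difference of centred log2(TPM + 1) profiles, over 11714 genes reaching 10 TPM in at least 1 library, and it was 0.21 for Rian. Outside the domain the nearest were Ier2 (0.36), an immediate early gene, Nodal (0.49), a TGF-beta family ligand, Sgk1 (0.50), a kinase, Cyb5r1 (0.54) and Rhob (0.54), a small GTPase. Mirg stood at 2.56, Dio3 at 1.76, Dlk1 at 1.86 and Rtl1 at 2.26, farther from Meg3 than Rian. Of the 11714 genes outside the domain, 3461 were nearer to Meg3 than Dio3 was. For Dlk1, Rtl1 and Mirg these numbers were 3942, 5731 and 6894. Mirg parted from Meg3 in round sperm, where its ratio to Meg3 was 81.6, against at most 0.117 in the stem cell libraries. Dlk1, Dio3 and Rtl1 stayed under 10 TPM, at most at 4.53, 9.12 and 1.14. They were kept as members, and this scale flattens the profiles of low genes. The nearest to Dlk1 were Itm2c (0.09), Myo1e (0.10), Chpf (0.11), Sars2 (0.11) and Grsf1 (0.12), and no member of the domain was among them.

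Other imprinted genes were set beside the domain. Among maternally expressed genes outside it, 0 of 12 were called higher and 2 lower in A129-2, beside 5.01% and 5.34% of all genes, with a median of -0.04 against -0.06 for all genes. These were H19 (-2.22), a long RNA at 44.6 FPKM in AOS-14, 13.9 in AOS-16 and 4.61 in A129-2, and Ascl2 (-2.02), a trophoblast transcription factor. H19 was thus lowest in the line in which Meg3 was highest. Among paternally expressed genes, 3 of 21 were higher in that line, Ndn (1.35), Impact (1.30) and Peg12 (1.25), and 2 were lower, Igf2 (-1.35) and Slc38a4 (-1.07), with a median of 0.13. Against ESC XX, 0 of 15 maternally expressed genes were higher and 4 were lower, beside 6.93% and 7.82% of all genes, namely Osbpl5 (-2.74), H19 (-1.86), Grb10 (-1.76) and Tfpi2 (-1.17). Of the paternally expressed genes 4 of 23 were higher and 4 were lower, from Igf2 at -4.50 to Peg12 at 2.33. Igf2, a fetal growth factor, and H19 are also fibroblast RNAs, and the marker difference described above stands beside both. Against round sperm, 14 of 22 paternally expressed genes were called higher and 4 lower by limma, and 4 of 15 maternally expressed genes higher and 4 lower, beside 22.8% of all genes higher and 39.1% lower.

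A list of genes tied to keeping or erasing imprints held Zfp57, Trim28 and the DNA methyltransferases, and also the demethylating Tet enzymes. None of its 18 measured genes was called between A129-2 and the AOS lines. The shares of all genes were 5.01% higher and 5.34% lower, so little is read from a count of 18 genes. Their median was -0.26, against -0.06 for all genes. Zfp57, which protects imprinted control regions, was at 116 FPKM in AOS-14, 87.7 in AOS-16 and 85.7 in A129-2, so A129-2 was nearly level with AOS-16. Between the AOS lines 1 of 18 was called, beside 6.52% of all genes in either direction. It was Dppa3, a factor that shields DNA from demethylation, higher in AOS-14 (1.31). Against ESC XX, 2 of 19 were higher, Dnmt3l (1.30), a cofactor of de novo methylation, and Dppa3 (1.09), and 0 were lower, beside 6.93% and 7.82% of all genes. Zfp57 differed by -0.91 ± 0.03 (SD, n = 3) without reaching a call. Against round sperm, 10 of 18 were called higher by limma and 0 lower, beside 22.8% and 39.1% of all genes, led by Dppa3, Tet1, Tet2 and Dnmt3b. The genes called higher thus include both keepers and erasers of methylation.

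Partners of the Dlk1 and Dio3 proteins were taken as a further list. Of Notch receptors, their targets and the genes of thyroid hormone handling, 1 of 12 was called higher against ESC XX and 0 lower, beside 6.93% and 7.82% of all genes, namely Dll1 (1.48), a Notch ligand. Between A129-2 and the AOS lines 0 of 11 were higher and 2 were lower, beside 5.01% and 5.34% of all genes, Hey1 (-1.79), a Notch target, and Dll1 (-1.27). Against round sperm, 4 of 12 were called higher by limma, Hes1 (3.28), Notch3 (3.06), Notch1 (2.73) and Notch2 (1.80), and 1 lower, Dio1 (-2.57), the deiodinase of liver and kidney. The shares of all genes in that comparison were 22.8% higher and 39.1% lower. Of genes related to Rtl1 by their retrotransposon origin, 2 of 8 were called higher in A129-2, Cxx1a (1.78) and Cxx1b (1.05), and 1 was lower, Pnma3 (-1.02), beside 5.01% and 5.34% of all genes. Against ESC XX, 1 of 11 was higher, Pnma3 (1.94), and 1 was lower, Cxx1c (-1.72), beside 6.93% and 7.82% of all genes. Against round sperm 2 of 10 were called higher by limma and 3 lower, beside 22.8% and 39.1% of all genes, one of the higher being Peg10, which is also on the list of paternally expressed genes.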

How the data were processed

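PolyA RNA from 6 libraries was made into libraries with a stranded kit, per the labels' protocols. Per the submitters' processing notes, the tools included TopHat2 2.0.13 and Cuffdiff 2.2.1, with mm9. The sources used here do not give their settings or whether strand was used. The values deposited by the authors were read as FPKM, and the unit of the table shared by the AG-haESC and round sperm libraries was taken from the tool and the values, since its header names none. The ESC XX tables were normalized apart. No counts were given, so depth was estimated from the steps of low values. The 3 lines had 1 library each, and the ESC XX pair lay close to counting noise (median chi-square 1.35 times that of chance, against 19.0 to 46.3 times for pairs of lines), so its spread may be technical.

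Within the shared table, limma 3.58.1 in R 4.3.3 with a trend was fitted on log2(FPKM + 1) to genes of at least 1 FPKM in at least 1 library, two-sided, with Benjamini-Hochberg adjustment over all genes tested. The lone round sperm library was assumed to vary like the lines. The 2 residual degrees of freedom come from the 3 AG-haESC lines, so the p-values rest on the spread between those lines. They hold no measured spread of round sperm or within a line. The fit was tested on simulated data, where it missed most of the changes put in. ESC XX was compared after scaling to TPM and removing the median difference (-0.10). All differences on these scales understate the change of low genes. Named genes were the 6 members, up to 4 called genes with the largest difference per list, and the 5 genes nearest in profile. Begain, 6430411K18Rik, Col1a1, Fn1, Vim, Dppa5a, Zfp57 and Yy1 were named after their values were seen. Lists and members were chosen with earlier results of these data known. Chromosome order came from RefSeq on GRCm38, another build than mm9, and is given without coordinates; promoter windows are those of GRCm38.p6. Alternatives were another pseudocount, no filter, other scalings, removal of genes under 200 nt and leaving out each library.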

Additional observations from a re-analysis of the deposited data

How the results depend on the processing

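Against round sperm, 0 members were called, beside 9864 of all genes. The count was 3 with a pseudocount of 0.1 (10310 of all genes), 1 after rescaling to the same total (9348), 1 with genes under 200 nt left out (9758) and 1 after quantile normalization (9383). Leaving out a line gave 0 to 3 members and 7781 to 9410 genes, with 3 members without A129-2. The direction of the 4 tested members was the same under all 9 alternatives, with limma adjusted p from 0.00581 to 0.0487 for Dlk1, 0.0103 to 0.155 for Meg3, 0.0105 to 0.175 for Rian and 0.00754 to 0.359 for Mirg.

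Against ESC XX, 1 member was called, beside 2101 of all genes. The count was 2 with no filter on low values (2111 of all genes) and 3 without removal of the median (2005), after quantile normalization (1962) or on FPKM as deposited (1484). Leaving out a library gave 1 to 4 members and 2082 to 2592 genes, the highest of both without A129-2. Dio3 stayed called under all 11 alternatives, from -2.96 to -1.79. Meg3 changed call in 1, Rian in 5 and Mirg in 7.

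Between A129-2 and the AOS lines, Meg3, Rian and Mirg stayed past the limit under all 7 alternatives, and the number of all genes called rose from 1308 to 2193 with a pseudocount of 0.1. Between AOS-14 and AOS-16 that number was 824, and 1519 with a pseudocount of 0.1 and 1413 after rescaling. The cause of these shifts was not tested. No paired analysis was possible because the groups share no pairing in the labels. Depth limits Rtl1 and Dio3, each resting on 33 fragments or fewer in every AG-haESC library.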

Other observations

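The domain is known for one of the largest microRNA clusters of the mouse genome, and the tables list 60 microRNA and 7 small nucleolar RNA entries between Dlk1 and Dio3. Of these, 2 microRNAs (Mir1188 and Mir376b) and 1 small nucleolar RNA (DQ267100) were above 0, and all 3 only in AOS-14. That library had 12.7% of its summed FPKM in genes under 200 nt, against 0.111% in A129-2, 0.00983% in AOS-16, 6.26% in round sperm and at most 0.100% in ESC XX. The line in which the host transcripts were highest, A129-2, thus listed every one of these entries at 0, in libraries made from polyA RNA. Dio3os, a non-coding RNA beside Dio3, was at 0.188 FPKM in AOS-14, 0.0987 in A129-2 and 0.0552 in 1 ESC XX library, and was listed at 0 in the other libraries. The second annotated Meg3 start window held 1 CpG, whereas that of Dio3 held 25 with a GC content of 69.0%.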
